A study of Chlamydomonas reinhardtii with 12 samples.

Results

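The dark response of the green alga Chlamydomonas reinhardtii was compared between the wild type CC-124 and amiCYG12, a CC-124 transformant in which an artificial microRNA is directed against CYG12, a soluble guanylate cyclase. Both strains were grown in acetate-containing TAP medium at 20 °C with aeration under constant illumination of 20 µmol photons m-2 s-1 (standard), and then kept for 6 h in darkness in open, aerated beakers (dark aerated). These 4 groups of 2 biological replicates hold 8 of the 12 libraries of the series; the other libraries come from sealed dark flasks that become anoxic, and serve here as a further condition in which the strains can be compared. The comparator is the untransformed parent strain, so the knockdown of CYG12 and any other effect of transformation cannot be told apart; the number of transformants behind the label amiCYG12 is not stated in it. Darkness and the 6 h that passed since the standard sample cannot be told apart either.

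The quantity described is the difference of responses. For each locus it is the log2 ratio of dark aerated to standard FPKM (fragments per kilobase of transcript, scaled to library size) in amiCYG12, minus the same ratio in CC-124, each FPKM value with 1 added. The most abundant transcript represents a locus, and loci with at least 1 FPKM in 1 of the 4 groups were kept: 10391 of 17744 loci, 2726 of them with a gene symbol. The lowest peak level among the kept loci was 1.00 FPKM and the highest among those left out 0.998 FPKM. Replicates were pooled into 1 FPKM value per group, so no replicate spread can be printed and the depth of each library is unknown; their number limits the precision. The sum of FPKM values was 672089 and 601731 in CC-124 (standard, dark aerated) and 528786 and 515471 in amiCYG12. Over all measured loci the median difference was -0.01, with quartiles of -0.34 and 0.32.

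Guanylate cyclases make the second messenger cyclic GMP, and soluble forms can respond to nitric oxide. In the dark, C. reinhardtii lives on acetate by respiration. When oxygen runs short it turns to fermentation and makes hydrogen with iron hydrogenases, whose assembly needs dedicated maturation proteins. The alga swims with a pair of cilia that are resorbed before cell division, and it divides by multiple fission, together with its single chloroplast.

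A difference was tested on the log2 changes of the authors' deposited table, which carry no added constant. The standard error was recovered from the authors' p-values (median 0.521 for a difference, in log2 units), and p-values were adjusted by Benjamini-Hochberg at 0.05 over all 10210 loci that could be tested. It is a normal approximation on the authors' error model and not an exact test over libraries, whose values the table does not hold. The response differed between the strains for 228 loci, 2.23% of those tested. It was higher in amiCYG12 for 88 (0.862%) and lower for 140 (1.37%). The smallest called difference was 1.65 on the deposited log2 scale, so differences below about that size are not resolved here. Of the 88, 19 reached 1 FPKM in the dark amiCYG12 cultures alone, and 15 of the 140 did so in the dark CC-124 cultures alone. Such loci passed the minimum through the group where they are high, which fixes their direction. With the larger of the 2 available error estimates in place of the smaller, 30 and 34 loci were called, all of them among the 228. Both estimates existed for 8762 loci. For the other tested loci the error is the same in both settings, so a call kept there met no larger error. On the scale with 1 FPKM added, the difference passed 4-fold upward for 19 loci (0.183%) and downward for 27 (0.26%), of which 14 and 19 were called.

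By the authors' calls, most of the called loci changed in 1 strain alone. In the deposited table, 12 of the 88 fell in CC-124 and rose in amiCYG12, 48 rose in amiCYG12 alone, and 24 fell in CC-124 alone. Likewise 13 of the 140 rose in CC-124 and fell in amiCYG12, 77 fell in amiCYG12 alone, and 47 rose in CC-124 alone. Among all loci tested in that table, 4.2% rose and 6.97% fell in the dark in CC-124, and 4.12% rose and 9.99% fell in amiCYG12. The median responses were -0.58 in CC-124 and 0.99 in amiCYG12 over the 88 loci, and 0.50 and -0.93 over the 140. Choosing loci by the size of the difference favours opposite signs, so these medians describe the chosen loci and test nothing.

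**Figure D1:**
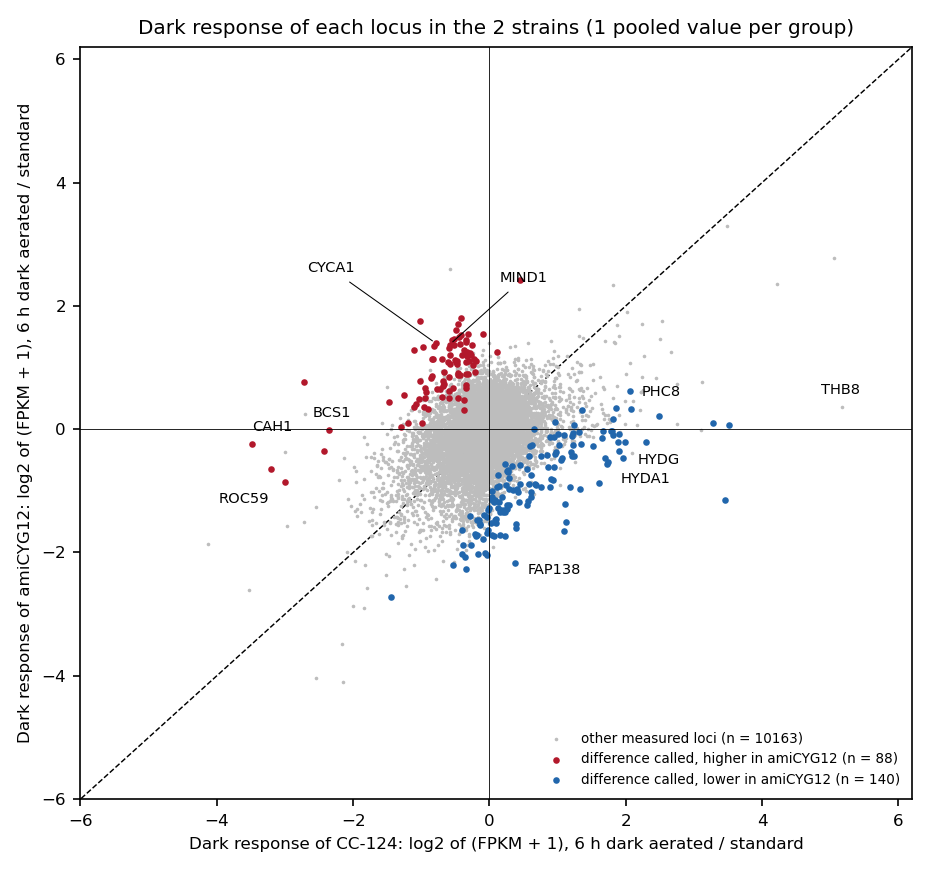
Dark response of every measured locus in CC-124 (x axis) and amiCYG12 (y axis), as log2 ratios of dark aerated to standard FPKM with 1 added. Each point is 1 locus, the dashed line marks equal responses, and the 88 red and 140 blue loci with a called difference lie above and below that line, as their choice by the difference requires.

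CYG12 itself separated the strains in the dark. In CC-124 it rose from 0.132 FPKM in the standard culture to 3.23 in the dark aerated one, a change called in the authors' deposited table. In amiCYG12 it stood at 0.158 and 0.353 FPKM. In the light both strains were far below 1 FPKM and the authors' table holds no test between them, so their closeness there shows little. After 6 h of darkness the knockdown line was lower by the authors' call. The difference of responses was -1.68. Of the 4 groups, the dark CC-124 cultures alone reached 1 FPKM, which fixes the direction of this difference. It could not be tested, since the authors' table holds no test for the low amiCYG12 values. Under anoxia the levels were 2.46 FPKM in CC-124 and 0.429 in amiCYG12, again called lower.

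Of 55 loci annotated as nucleotide cyclases 32 were measured, with a median difference of -0.12. Among the 30 tested cyclases 1 was called, higher in amiCYG12, against 0.862% of all loci. That locus, CYG55, was at 0.789 and 0.384 FPKM in CC-124 (standard, dark aerated) and at 0.653 and 1.05 in amiCYG12 (difference 0.68). It passed the minimum of 1 FPKM through the dark amiCYG12 cultures alone, and its call was lost with the larger error estimate. None of the 17 tested phosphodiesterases, the enzymes that degrade cyclic nucleotides, was called by that test. An unadjusted p under 0.05 was found for 1 of them, against 1348 of the 10210 loci overall. For CYG55 the adjusted p on the authors' errors was 0.0471.

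The truncated hemoglobins, heme proteins that bind oxygen and nitric oxide, all had a negative difference: 8 of 8 measured members, with a median of -0.65, against 5295 of 10391 over all loci. THB8, named here after its values were seen, had the largest negative difference of any locus, -4.81. It stood at 0.0107 FPKM in the standard CC-124 culture and at 35.5 in the dark, while amiCYG12 had 0.0348 and 0.333 FPKM. Of the 4 groups, the dark CC-124 cultures alone stood above 1 FPKM, which fixes the direction of THB8. Without THB8, 7 of 7 members had a negative difference, with a median of -0.56. THB7 to THB11 lie between bases 2511028 and 2753504 of chromosome 16, and THB3 and THB4 lie close together on chromosome 4. The members are thus not spread over the genome as all loci are, and how reads that match several of them were assigned is not stated. Under anoxia THB8 was at 31.2 FPKM in CC-124 and 0.40 in amiCYG12. The authors' table calls THB8 lower in amiCYG12 in the dark and under anoxia, holds no test of the amiCYG12 response, and does not call the CC-124 response, so the difference could not be tested. THB7 went from 5.77 to 16.9 FPKM in CC-124 and from 3.55 to 3.30 in amiCYG12 (not called). In the dark aerated cultures 6 of the 8 members, THB8 among them, were lower in amiCYG12 by the authors' calls, against 10.9% of all loci. None of the 7 tested members was called for the difference itself. An unadjusted p under 0.05 with a negative difference was found for 2, against 801 of the 10210 loci overall. For THB7 the adjusted p on the authors' errors was 0.0603.

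Genes of hydrogen production rose in the dark in CC-124 and did not do so in amiCYG12. HYDA1, which encodes the main iron hydrogenase, went from 19.2 to 66.2 FPKM in CC-124 and from 11.3 to 7.48 in amiCYG12 (difference -2.27). Its paralog HYDA2 went from 6.15 to 22.6 FPKM in CC-124 and from 4.73 to 2.85 in amiCYG12 (-2.30). HYDG, a maturation factor of the hydrogenase metal centre, went from 8.07 to 34.4 FPKM in CC-124 and from 16.7 to 11.8 in amiCYG12 (-2.43). The maturation factor HYDEF showed 0.989 and 2.88 FPKM in CC-124 and 1.94 and 1.23 in amiCYG12 (-1.36). For all 4 genes the CC-124 rise is called in the authors' deposited table and the amiCYG12 value is not. On the authors' errors, the adjusted p was 0.0062 for HYDA1, 0.0037 for HYDA2, 0.000645 for HYDG and 0.00706 for HYDEF.

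HYDG and HYDEF are neighbours on chromosome 6 of assembly v5.5, at bases 6998683 to 7003289 and 7003406 to 7012157, with 116 bases between them. Their standard levels were higher in amiCYG12 by the authors' calls. Chromosome 6 as a whole stood apart between the strains: the median strain gap of its 1081 measured loci was 0.62 in the standard and 0.66 in the dark aerated cultures, against -0.04 and -0.06 over all loci. The gap was almost the same in both conditions, so the median difference of responses on chromosome 6 was 0.03, and without that chromosome the test called 77 higher and 127 lower loci. HYDA1 and HYDA2 lie on chromosomes 3 and 9. What sets chromosome 6 apart was not tested.

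The list of fermentation and hydrogen genes, which holds these 4, had 23 measured members. Of the 21 tested, 6 were called lower in amiCYG12, against 1.37% of all loci, and 0 higher, with 0 at an unadjusted p under 0.05 upward. Among the 19 members beside the hydrogenase genes 12 had a negative difference, the median was -0.68, and 2 of 17 tested were called. Those 12 include HCP4 and HCP1, which reached 1 FPKM in the dark CC-124 cultures alone, and this fixes their direction. Without HCP4 and HCP1, 14 of 21 members of the whole list had a negative difference, with a median of -0.78. The 2 called members were HCP3, a hybrid-cluster protein that reduces nitrogen oxides in bacteria, and MME3, an NADP malic enzyme. HCP3 went from 3.18 to 6.84 FPKM in CC-124 and from 1.43 to 0.383 in amiCYG12 (difference -1.72). MME3 went from 2.99 to 10.4 FPKM in CC-124 and from 2.58 to 1.96 in amiCYG12 (-1.80). HCP4 and HCP1, both too low for a test in amiCYG12 and both above 1 FPKM in the dark CC-124 cultures alone, were at 3.66 and 1.97 FPKM in the dark CC-124 cultures and at 0.151 and 0.0398 in amiCYG12. PFL1, the pyruvate formate-lyase, had 105 and 153 FPKM in CC-124 and 118 and 76.8 in amiCYG12, a difference of -1.15 that was not called. FDX5, a ferredoxin of anoxic cells, showed no such pattern: it had 3.46 and 2.57 FPKM in CC-124 and 3.74 and 2.84 in amiCYG12 (difference 0.02), and 2691 and 1684 FPKM under anoxia. With the larger error estimate 2 members, HYDG and HYDEF, were called. With the authors' errors, the adjusted p was 0.00126 for HCP3, 0.0151 for MME3, 0.216 for PFL1 and 0.991 for FDX5.

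Under anoxia the strain gap differed between the 4 hydrogenase genes. HYDA1 reached 238 FPKM in CC-124 and 120 in amiCYG12, and HYDA2 41.3 and 12.5. HYDG was at 65.7 and 55.7 FPKM, and HYDEF at 9.91 and 12.5. The authors' table calls HYDA1 and HYDA2 lower in amiCYG12 under anoxia and leaves HYDG and HYDEF uncalled. Of the 19 other members, 10 were lower in amiCYG12 in the dark aerated and 8 in the anoxic cultures by the authors' calls, against 10.9% and 8.85% of all loci. Both counts include HCP4 and HCP1, which passed the minimum through the dark CC-124 cultures alone.

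**Figure D2:**
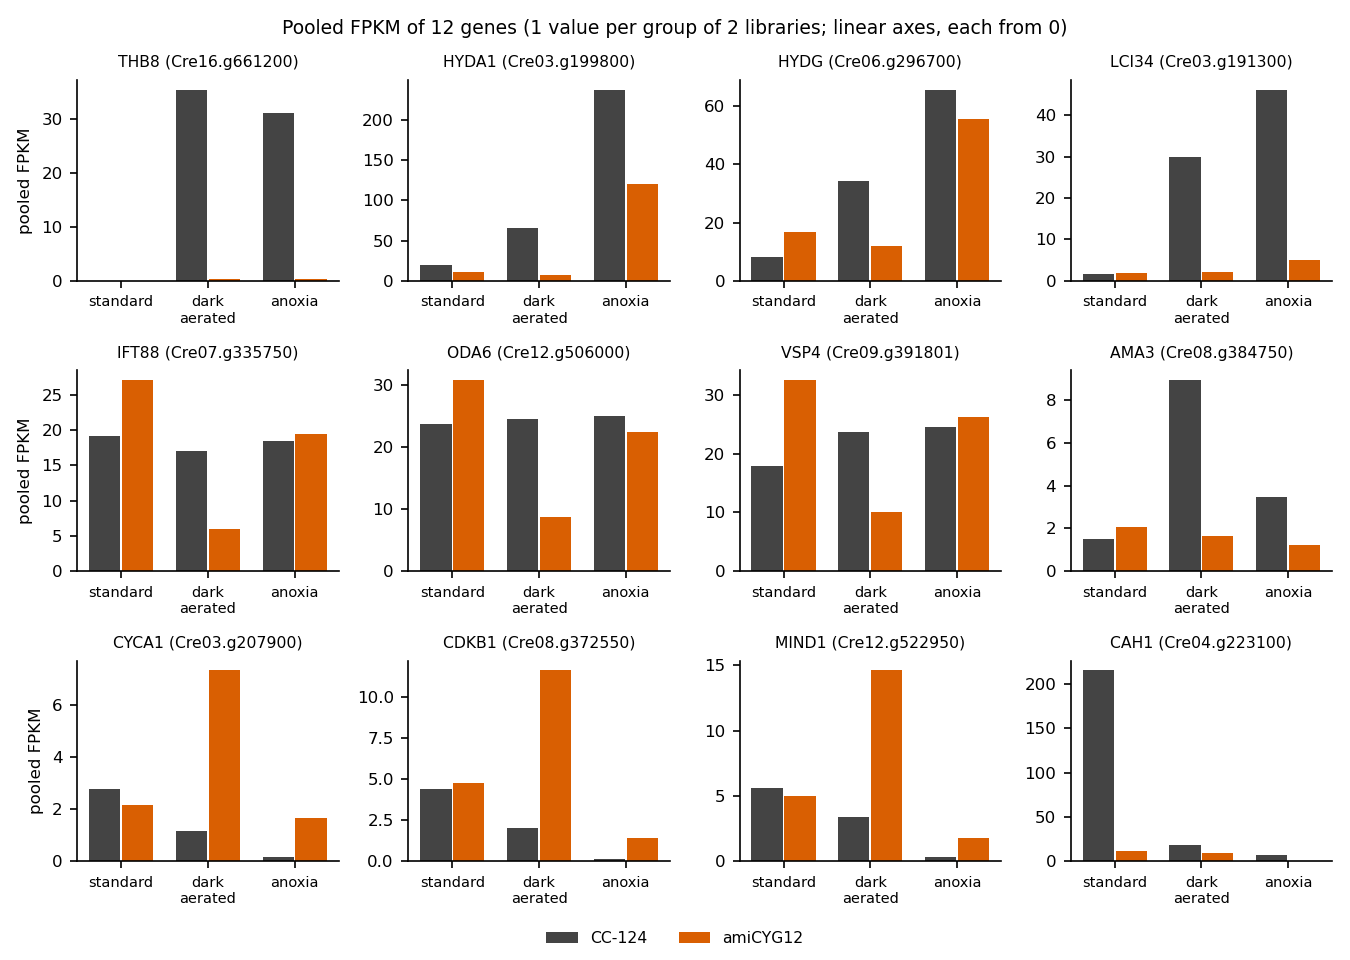
Pooled FPKM of 12 genes in CC-124 (dark grey) and amiCYG12 (orange) in the standard, dark aerated and anoxic cultures, with 1 value per group and no error bars. THB8, HYDA1, HYDG, LCI34 and AMA3 were high in the dark aerated CC-124 cultures and low in amiCYG12; IFT88, ODA6 and VSP4 were low in the dark aerated amiCYG12 cultures alone; CYCA1, CDKB1 and MIND1 peaked there; CAH1 was high in the standard CC-124 culture alone.

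Cilia genes had mostly lower dark responses in amiCYG12. Of 220 measured loci for flagellar associated proteins 204 had a negative difference, with a median of -0.84. The median response of these loci was -0.23 in CC-124 and -1.09 in amiCYG12. By the authors' deposited calls, 161 of them fell in the dark in amiCYG12 and 24 in CC-124, against 9.99% and 6.97% of all loci. The difference was called for 20 of 217 tested loci, all lower in amiCYG12, against 1.37% of all loci, and 111 had an unadjusted p under 0.05 in that direction against 801 of the 10210 loci overall. FAP138 had the largest difference of the list: 1.78 and 2.60 FPKM in CC-124 and 7.87 and 0.964 in amiCYG12 (-2.55). FAP33, a protein with ankyrin repeats, stood at 9.23 and 8.94 FPKM in CC-124 and at 9.21 and 1.49 in amiCYG12 (-1.996). FAP32, annotated as the intraflagellar transport protein IFT46, stood at 22.6 and 21.6 FPKM in CC-124 and at 30.1 and 6.75 in amiCYG12 (-1.94). In each of the 3 the amiCYG12 level fell and no change was called in CC-124, where FAP33 and FAP32 stayed close together. FAP138 was already higher in amiCYG12 in the standard cultures by the authors' calls, with a gap of 1.67, and FAP33 and FAP32 were not called there. From the authors' errors, the adjusted p was 0.000181 for FAP138, 0.03 for FAP33 and 0.016 for FAP32.

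The structural and transport components of the cilium moved in the same direction. Among 107 measured loci for axonemal dyneins, radial spokes, intraflagellar transport, the BBSome and tubulins, 95 had a negative difference, and the median was -0.84. The test called 7 of the 107 lower in amiCYG12 and 1 higher, against 1.37% and 0.862% of all loci. IFT88, a carrier protein of intraflagellar transport, stood at 19.2 and 17.0 FPKM in CC-124 and at 27.2 and 5.95 in amiCYG12 (-1.85). ODA6, an intermediate chain of the outer dynein arm that drives the ciliary beat, stood at 23.8 and 24.6 FPKM in CC-124 and at 30.9 and 8.73 in amiCYG12 (-1.76). The radial spoke protein RSP5 stood at 10.97 and 10.2 FPKM in CC-124 and at 16.9 and 4.21 in amiCYG12 (-1.69). FAP94, a dynein-associated chain that both lists hold, is among the 7, as are RSP23, RSP17 and PF20. The member called higher was MOT42, at 0.934 and 0.668 FPKM in CC-124 and 0.718 and 2.27 in amiCYG12, the 1 group in which it reached 1 FPKM. With the larger error estimate 4 of the flagellar associated and 0 of the axonemal loci were called lower; with the error from the responses alone the numbers were 10 and 1. Computed on the authors' errors, the adjusted p was 0.0123 for IFT88, 0.0281 for ODA6 and 0.0195 for RSP5.

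The ciliary strain gap did not carry over to the sealed flasks. The median gap of the flagellar associated loci (amiCYG12 over CC-124, log2) was 0.26 in the standard, -0.49 in the dark aerated and 0.14 in the anoxic cultures. IFT88 was at 18.5 FPKM in CC-124 and 19.5 in amiCYG12 under anoxia, and ODA6 at 25.1 and 22.4. The authors' calls placed 56 flagellar associated loci lower in amiCYG12 in the dark aerated and 7 in the anoxic cultures, against 10.9% and 8.85% of all loci. They placed 7 and 16 higher, against 8.46% and 5.69%.

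Genes of cell division went the other way. Of 70 loci for DNA replication and the cell cycle 51 were measured, and 6 of 47 tested were called, all higher in amiCYG12, against 0.862% of all loci. Of the 51, 40 had a positive difference and the median was 0.45, but 11 of these 40 reached 1 FPKM in the dark amiCYG12 cultures alone and so had to differ that way. Among the 39 members above 1 FPKM in more than 1 group, 29 had a positive difference, with a median of 0.31. The 6 called members are among those 39. The 16 loci of this list with an unadjusted p under 0.05 all lay in that direction, against 547 of 10210 overall. They include RFA3, POLA2, ORC6 and CDC45, which entered through the dark amiCYG12 cultures alone, so for these the direction was fixed. CYCA1, an A-type cyclin, went from 2.76 to 1.18 FPKM in CC-124 and from 2.17 to 7.33 in amiCYG12 (difference 2.18). The B-type cyclin CYCB1 went from 2.27 to 1.17 FPKM in CC-124 and from 2.24 to 7.04 in amiCYG12 (1.90). CDKB1, the plant-specific mitotic cyclin-dependent kinase, went from 4.40 to 2.03 FPKM in CC-124 and from 4.74 to 11.6 in amiCYG12 (1.97). The strains were close in the light for all 3 genes, and the CC-124 and amiCYG12 values then moved apart. On the authors' errors, the adjusted p was 0.000629 for CYCA1, 0.00975 for CYCB1 and 0.0037 for CDKB1.

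The other called members of the list were RIR2A, the small subunit of ribonucleotide reductase that makes DNA precursors, MCM3, a subunit of the replicative helicase, and ALK2, an Aurora-like kinase. RIR2A went from 4.71 to 3.09 FPKM in CC-124 and from 4.44 to 10.7 in amiCYG12 (difference 1.59). MCM3 went from 1.19 to 0.791 FPKM in CC-124 and from 2.05 to 6.14 in amiCYG12 (1.52). Positive differences without a call were those of MCM4, another helicase subunit, with 1.25, and of the sliding clamp PCN1, with 1.05. By the authors' deposited calls, 18 members rose in the dark in amiCYG12 and 1 in CC-124, against 4.12% and 4.2% of all loci. In the dark 25 were higher in amiCYG12 than in CC-124, against 8.46% of all loci. Of the 25, RFC4, PRI2, CDC6, ORC6, CDC45 and MCM3 lie on chromosome 6, with its median gap of 0.66 in the dark. The 18 and the 25 include loci such as CDC6, TOP2 and CDC45, which reached 1 FPKM in the dark amiCYG12 cultures alone. Their direction was fixed by that entry. Among loci of at least 5 FPKM the median difference of the list was 0.09 over 20 members, and with the larger error estimate CYCA1 and CYCB1 were called. CYCB1 had only 1 estimate, so its error did not change. With the authors' errors, the adjusted p was 0.019 for RIR2A, 0.016 for MCM3, 0.0575 for MCM4 and 0.244 for PCN1.

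Plastid division genes followed the same course. MIND1, MINE1, MINE2, FTSZ1 and ARC6, which place and build the division ring of the chloroplast, were called higher in amiCYG12, 5 of the 10 members tested, against 0.862% of all loci. MINE2 and ARC6 passed the minimum through the dark amiCYG12 cultures alone. MIND1 went from 5.62 to 3.42 FPKM in CC-124 and from 5.03 to 14.6 in amiCYG12 (difference 1.96). MINE1 went from 2.82 to 1.36 FPKM in CC-124 and from 2.28 to 6.23 in amiCYG12 (1.83). MINE2 had 0.903 and 0.364 FPKM in CC-124 and 0.94 and 3.06 in amiCYG12 (1.55). FTSZ1, a tubulin-like ring protein, went from 2.80 to 1.77 FPKM in CC-124 and from 2.53 to 5.64 in amiCYG12 (1.37). The members with a negative difference were 4 dynamin-related proteins, of which none was called. The median of the list was 0.94, and 1.67 with 0.1 FPKM added in place of 1. Without MINE2 and ARC6 it was 0.48 over 8 members, and with the larger error estimate MINE1 alone was called. From the authors' errors, the adjusted p was 0.00786 for MIND1, 0.00859 for MINE1, 0.0122 for MINE2 and 0.0416 for FTSZ1.

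The strain gap of the division genes was positive under anoxia too. CYCA1 was at 0.188 FPKM in CC-124 and 1.67 in amiCYG12 there, CDKB1 at 0.166 and 1.45, and MIND1 at 0.305 and 1.83. Without an added constant, the authors' deposited table gives gaps of 2.63 in the dark aerated and 3.15 in the anoxic cultures for CYCA1, of 2.52 and 3.12 for CDKB1, and of 2.10 and 2.58 for MIND1 (log2). The authors' table calls 12 members of the cell cycle list and 4 of the plastid division list higher in amiCYG12 under anoxia, against 5.69% of all loci. Of these, MAT3, RFC4, CDC45, MCM3 and the dynamin-related DRP4A lie on chromosome 6, with its median gap of 0.62 in the standard cultures. RFC4, ALK3 and DRP4A were already called higher in the standard cultures, and CDC45 entered through the dark amiCYG12 cultures alone. The share of all loci does not allow for this.

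**Figure D3:**
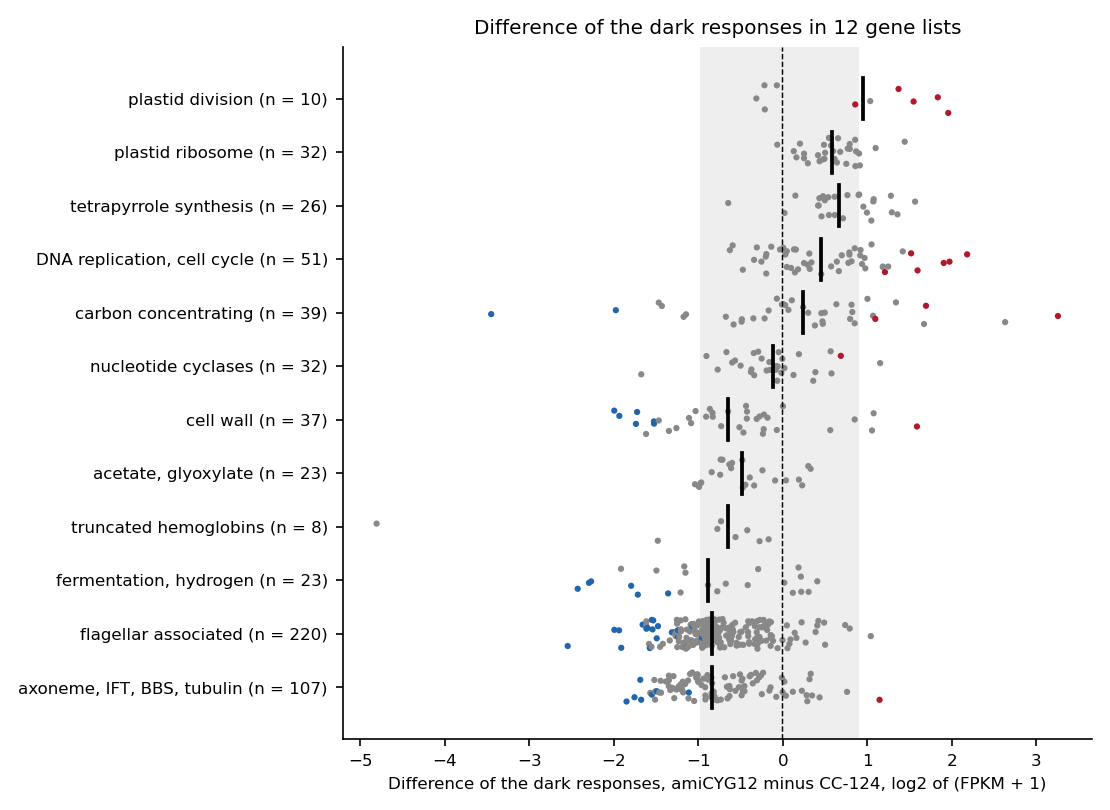
Difference of the dark responses (x axis, log2 of FPKM with 1 added, amiCYG12 minus CC-124) for the measured members of 12 gene lists; each point is 1 locus, red and blue mark differences called higher and lower, and vertical bars mark list medians. The grey band spans the 5th to 95th percentile of all loci, -0.97 to 0.88, and the medians run from 0.94 for plastid division to -0.84 for the 2 cilia lists and -0.89 for fermentation.

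The genes of carbon uptake were split. The carbon concentrating mechanism pumps bicarbonate into the plastid when carbon dioxide is scarce, and 3 of its 37 tested members were called higher in amiCYG12 and 2 lower, against 0.862% and 1.37% of all loci. CAH1, the periplasmic carbonic anhydrase, fell from 216 to 18.3 FPKM in CC-124 and was at 11.2 and 9.37 in amiCYG12 (difference 3.25). By the authors' calls CAH1 was already lower in amiCYG12 in the light, and the strains were not called apart in the dark aerated cultures. Under anoxia it was again called lower in amiCYG12, at 0.172 FPKM against 7.04 in CC-124. LCI1, a plasma membrane transporter, had 7.86 and 0.105 FPKM in CC-124 and 0.485 and 0.145 in amiCYG12, but could not be tested. LCI1 reached 1 FPKM in the standard CC-124 culture alone, which fixes its direction. LCIC, a soluble plastid protein of the same mechanism, followed another course: 130 and 70.8 FPKM in CC-124 and 132 and 235 in amiCYG12 (1.69). LCIA, a plastid bicarbonate channel, had 0.729 and 0.152 FPKM in CC-124 and 0.718 and 1.44 in amiCYG12 (1.09), and passed the minimum through that last group alone. Computed on the authors' errors, the adjusted p was 0.038 for CAH1, 0.0412 for LCIC and 0.0472 for LCIA.

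The members called lower were 2 neighbouring loci that both carry the symbol LCI34, of a low-carbon-dioxide-inducible protein. The locus Cre03.g191300 rose from 1.71 to 30.03 FPKM in CC-124 and was at 1.89 and 2.01 in amiCYG12, the largest negative difference of a called gene with a symbol (-3.45). Cre03.g191250 rose from 12.2 to 48.6 FPKM in CC-124 and was at 11.1 and 10.5 in amiCYG12 (-1.98). They lie 625 bases apart on chromosome 3, and the sources used here do not say how reads that match both, or both hydrogenase paralogs, were assigned. CAH1, LCIC, LCIA and Cre03.g191250 lost their call with the larger error estimate. On the authors' errors, the adjusted p was 0.0129 for Cre03.g191300 and 0.0412 for Cre03.g191250.

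Tetrapyrrole synthesis, which leads to chlorophyll and heme, and the plastid ribosome shifted upward by small steps. In the tetrapyrrole list 25 of 26 members had a positive difference, with a median of 0.66: the median response was -1.27 in CC-124 and -0.50 in amiCYG12. The authors' calls show that 22 of these genes fell in the dark in CC-124 and 5 in amiCYG12, against 6.97% and 9.99% of all loci. In the standard cultures 17 were already lower in amiCYG12, against 5.09% of all loci. GSA1, an early enzyme of the pathway, shows the pattern with 296 and 84.1 FPKM in CC-124 and 77.1 and 65.2 in amiCYG12 (1.56). Plastid ribosomal proteins had a positive difference in 31 of 32 cases with a median of 0.58, and median responses of -0.95 and -0.38. None of either list was called by the recovered-error test. Upward, 6 of the 26 tetrapyrrole and 2 of the 32 ribosomal members had an unadjusted p under 0.05, against 547 of 10210 overall. The ribosomal count is close to that share. For GSA1 the adjusted p on the authors' errors was 0.128.

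**Figure D4:**
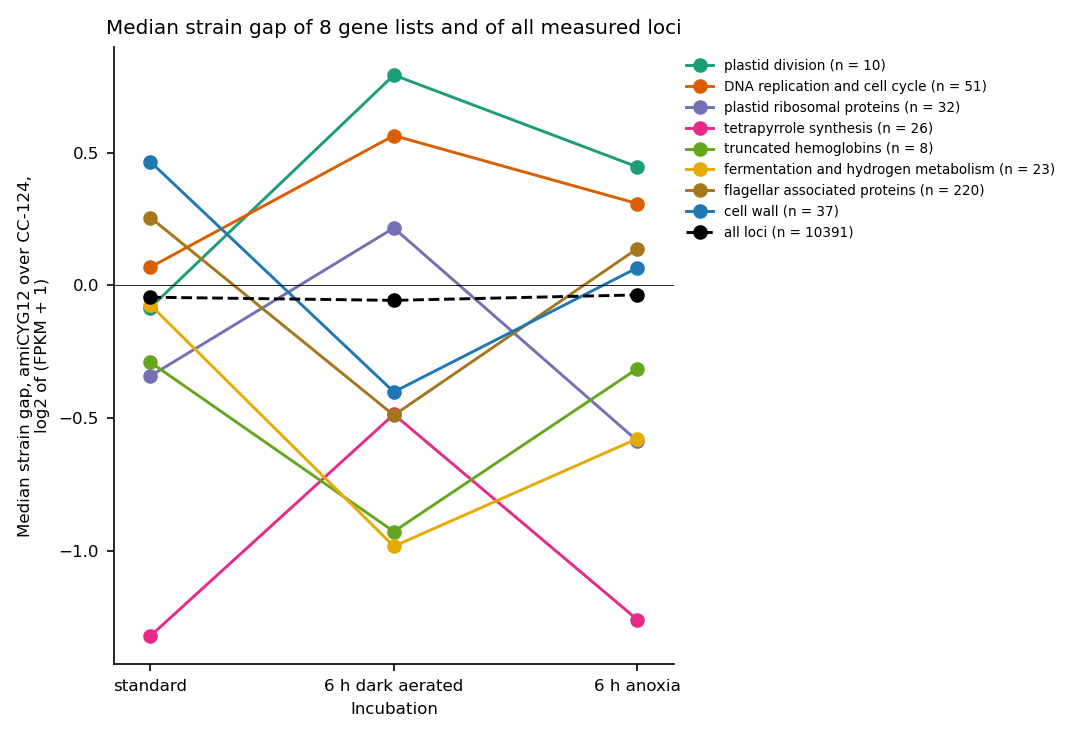
Median strain gap (y axis, log2 of amiCYG12 over CC-124 FPKM with 1 added) of 8 gene lists and of all measured loci in the standard, dark aerated and anoxic cultures; lines join the 3 medians of a list and are not time courses. The flagellar list passes from 0.26 to -0.49 and back to 0.14, while the median of all loci stays between -0.06 and -0.04.

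Most cell surface genes had a lower dark response in amiCYG12, with a negative difference in 32 of 37 measured members, against 5295 of 10391 over all loci. Among the 33 members above 1 FPKM in more than 1 group it was negative in 29. The test called 6 members lower in amiCYG12 and 1 higher among 36 tested, against 1.37% and 0.862% of all loci. VSP4, a hydroxyproline-rich wall glycoprotein, had 17.9 and 23.8 FPKM in CC-124 and 32.6 and 10.03 in amiCYG12 (difference -1.997). MMP3, a metalloproteinase of the family that includes the wall-degrading gamete lysin, had 14.5 and 19.4 FPKM in CC-124 and 23.8 and 7.53 in amiCYG12 (-1.94). The pherophorin PHC8 rose from 24.96 to 108 FPKM in CC-124, and was at 53.5 and 67.7 in amiCYG12 (-1.74). GAS31 was the member called higher, with 4.92 and 3.19 FPKM in CC-124 and 5.13 and 12.04 in amiCYG12 (1.59). The median of the list was -0.65 over 37 loci. With the authors' errors, the adjusted p was 0.00762 for VSP4, 0.00774 for MMP3, 0.0343 for PHC8 and 0.0258 for GAS31.

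Further called genes with a symbol came from carbon stores, chaperones and the clock. AMA3, by its symbol an alpha-amylase of starch breakdown, rose from 1.51 to 8.95 FPKM in CC-124 and was at 2.08 and 1.66 in amiCYG12 (-2.20). MLDP1, the major lipid droplet protein, rose from 2.56 to 10.1 FPKM in CC-124 and was at 4.60 and 4.05 in amiCYG12 (-1.79). SBD1, a selenium binding protein, rose from 5.802 to 16.02 FPKM in CC-124 and fell from 8.14 to 3.69 in amiCYG12 (-2.29). NAR1.3, a formate and nitrite transporter, was at 4.88 and 6.01 FPKM in CC-124 and at 5.17 and 1.64 in amiCYG12 (-1.48). From the authors' errors, the adjusted p was 0.00975 for AMA3, 0.0246 for MLDP1, 0.000476 for SBD1 and 0.021 for NAR1.3.

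On the other side, BCS1, a biogenesis factor of the respiratory cytochrome bc1 complex, fell from 10.2 to 1.18 FPKM in CC-124 and was at 5.26 and 5.22 in amiCYG12 (2.35). ROC59, one of the genes found through altered circadian rhythms, fell from 18.7 to 1.47 FPKM in CC-124 and from 4.22 to 1.87 in amiCYG12 (2.13). The chaperone BIP2 fell from 7.52 to 0.581 FPKM in CC-124 and was at 0.996 and 0.556 in amiCYG12 (2.07). BIP2 reached 1 FPKM in the standard CC-124 culture alone. PPR9, a pentatricopeptide repeat protein, had 7.42 and 3.79 FPKM in CC-124 and 3.86 and 11.3 in amiCYG12 (2.16). FAS3, a fasciclin-like protein, had 5.86 and 1.48 FPKM in CC-124 and 2.89 and 4.30 in amiCYG12 (1.92). LAL2, a La-like RNA-binding protein, had 2.45 and 1.54 FPKM in CC-124 and 1.78 and 6.81 in amiCYG12 (1.93). As with CAH1, the amiCYG12 levels of BCS1, ROC59, BIP2 and FAS3 were already lower in the standard cultures by the authors' calls. Computed on the authors' errors, the adjusted p was 0.000629 for BCS1, 0.0151 for ROC59, 0.0432 for BIP2, 0.00915 for PPR9, 0.000629 for FAS3 and 0.00516 for LAL2.

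Acetate and glyoxylate metabolism, which feeds the cells in the dark, had 18 of 23 negative differences, a median of -0.48 and no call. Of its members, 4 had a negative difference at an unadjusted p under 0.05, against 801 of the 10210 loci overall. ACH1, the aconitase, had 420 and 545 FPKM in CC-124 and 315 and 205 in amiCYG12 (-0.99). Of the 40 gene lists, 25 had no called member, and their medians ran from -0.65 to 0.66. Respiratory chain subunits had a median of -0.06 over 86 loci, cytosolic ribosomal proteins 0.13 over 64, and photosystem subunits and light-harvesting proteins 0.31 each over 20 and 26. The proteasome stood at -0.34, with 24 of 28 values negative. For ACH1 the adjusted p on the authors' errors was 0.369.

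Of the 228 called loci 143 carry no symbol. Cre07.g334150 had the largest negative called difference: it rose from 1.34 to 24.6 FPKM in CC-124 and fell from 2.81 to 0.724 in amiCYG12 (-4.59). Cre02.g102050 rose from 1.77 to 25.8 FPKM in CC-124 and was at 1.95 and 2.17 in amiCYG12 (-3.18). Cre08.g372200 went from 4.41 to 10.8 FPKM in CC-124 and from 4.56 to 0.954 in amiCYG12 (-2.63), and reached 2105 and 2135 FPKM under anoxia. The largest positive called difference was that of Cre16.g661750, which fell from 11.6 to 0.913 FPKM in CC-124 and rose from 0.184 to 1.005 in amiCYG12 (3.47). Cre03.g205100 fell from 18.8 to 8.72 FPKM in CC-124 and rose from 4.68 to 18.1 in amiCYG12 (2.78). On the authors' errors, the adjusted p was 0.000181 for Cre07.g334150, 0.0122 for Cre02.g102050, 0.000181 for Cre16.g661750 and 0.000466 for Cre03.g205100.

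Adjacent loci were called together in 4 places of the annotation, each time in the same direction and lower in amiCYG12. Beside HYDG with HYDEF and the LCI34 pair these were Cre15.g634827 with Cre15.g634855 and Cre06.g278164 with Cre06.g278165, each pair 54 bases apart. Cre15.g634827 went from 2.30 to 6.06 FPKM in CC-124 and from 7.81 to 1.82 in amiCYG12 (-2.74). For Cre15.g634827 the adjusted p on the authors' errors was 9.93e-05.

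The called loci were also compared between the strains in the sealed flasks, which the choice of loci did not use. Of the 88 loci with a higher dark response in amiCYG12, the authors' table calls 37 higher and 7 lower in amiCYG12 under anoxia; 29 were not called and 15 not tested. For the 140 loci with a lower response the numbers were 3 higher, 52 lower, 83 not called and 2 not tested. The backgrounds were 5.69% higher and 8.85% lower. The median strain gap of the 140 was 0.36 in the standard, -1.11 in the dark aerated and -0.33 in the anoxic cultures. For the 88 it was -0.19, 1.31 and 0.42. In the standard cultures 101 of the 140 and 69 of the 88 were not called between the strains, 31 and 0 were higher (5.54% of all loci) and 8 and 19 lower in amiCYG12 (5.09%).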

How the data were processed

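RNA selected for poly(A) tails was sequenced with a stranded kit in 12 libraries (6 groups of 2), per the labels' protocols; 8 libraries enter here. CASAVA 1.8.2, Bowtie2 2.0.5, TopHat2 2.0.6, SAMtools 1.2 and Cufflinks 2.1.1 are named in the submitters' processing notes. The authors deposited 1 pooled FPKM value per transcript and group, for the 5.5 genome with gene models of Phytozome release 11, as the file headers state. The authors also deposited, per pair of groups, a log2 fold change with its p-value, q-value and call. The roles of the tools, the use of the strand and the sharing of multi-mapping reads are not given in the sources used here. Because no values per library are in the table used, depth is unknown and the p-values rest on the authors' error model.

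Per locus the transcript of highest mean FPKM was used. 4 loci with failed estimates, written as 0, were left out. Differences of responses are own values on log2(FPKM + 1). For the test, the difference of the 2 deposited log2 changes was divided by a standard error and compared with a normal distribution, two-sided, with Benjamini-Hochberg adjustment (Python 3.11.15, scipy 1.17.1). Each error was the absolute log2 change over the normal quantile of its p-value; above 0.95 none was recovered, and at the smallest deposited p-value, 5e-05, it is an upper bound. The smaller of 2 estimates was used (1 built on both dark responses, 1 on both strain contrasts). Their ratio was 0.937 to 1.05 from the 5th to the 95th percentile over the 8762 loci with both. For the other tested loci only 1 estimate could be recovered, so the smaller and the larger are the same. 181 loci could not be tested.

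Members and gene lists were chosen with earlier results of these data known. 40 lists were matched to the table's symbols. After the values were seen, symbols of other families were removed by their descriptions in the table: TEF from the cilia list, CYN from the cyclases and 41 loci from 15 further lists, none of them called (POD1, without a description, left the proteasome list by its symbol). The cell wall median moved from -0.44 to -0.65 and the fermentation median from -0.68 to -0.89. Symbols in square brackets were read without them. Named genes were CYG12, the 12 called genes with a symbol of largest difference in each direction, up to 3 called members per list, all called cyclase and fermentation genes, and 4 called loci without a symbol in each direction. Coordinates come from RefSeq's annotation of assembly v5.5, which matched 10389 measured loci. No sequence was used.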

Additional observations from a re-analysis of the deposited data

Results flagged for a closer look

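The dark response differed between the strains, by the test of the difference itself, for 88 loci higher and 140 lower in amiCYG12. The values that follow are differences of the deposited log2 changes, amiCYG12 minus CC-124, for the named genes that passed that test; each rests on 1 pooled value per group and the recovered error.

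Among genes of hydrogen and fermentation metabolism the differences were -2.59 for HYDG, -2.61 for HYDA2, -2.38 for HYDA1, -3.002 for HCP3, -2.20 for MME3 and -2.19 for HYDEF. Cilia genes gave -3.58 for FAP138, -2.58 for FAP33, -2.09 for FAP32, -2.01 for IFT88, -1.87 for ODA6 and -1.90 for RSP5. The values for cell surface genes were -2.11 for VSP4, -2.08 for MMP3, -1.78 for PHC8 and 1.85 for GAS31.

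Genes of carbon uptake differed by -4.04 and -2.07 for the LCI34 loci Cre03.g191300 and Cre03.g191250, by 3.30 for CAH1 and by 3.27 for LCIA. Other genes with a lower response were SBD1 with -2.61, AMA3 with -2.89, MLDP1 with -2.17 and NAR1.3 with -1.96.

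Division genes differed by 2.98 for CYCA1, 2.61 for CYCB1, 2.41 for CDKB1, 1.88 for RIR2A, 2.26 for MIND1, 2.50 for MINE1 and 3.01 for MINE2. Further genes with a higher response were BCS1 with 3.09, BIP2 with 2.85, PPR9 with 2.52, ROC59 with 2.50, FAS3 with 2.56, LAL2 with 2.61, GOX18 with 2.90, DUD1 with 1.94, CLPB5 with 1.799 and CYG55 with 1.73. GOX18 was at 0.586 and 0.334 FPKM in CC-124 (standard, dark aerated) and at 0.937 and 3.99 in amiCYG12. It reached 1 FPKM in the dark amiCYG12 cultures alone, which fixes its direction, and its call was lost with the larger error.

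Loci without a symbol differed by -6.15 (Cre07.g334150), -3.72 (Cre02.g102050), -3.55 (Cre08.g372200) and -3.50 (Cre15.g634827), and by 6.11 (Cre16.g661750), 4.02 (Cre16.g662600), 3.92 (Cre03.g151650) and 3.06 (Cre03.g205100).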

How the results depend on the processing

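No paired analysis was possible because the table holds 1 pooled value per group; for the same reason no library could be left out. No named gene changed its direction with 0.1 FPKM added, with transcripts summed or under rescaling. The RNA silencing median changed sign, from 0.076 to -0.084, with a minimum of 5 FPKM. The counts of loci with a higher and a lower response in amiCYG12 fell from 88 and 140 to 30 and 34 with the larger error estimate, to 30 and 34 at an adjusted p of 0.01, and to 53 and 87 with a minimum of 5 FPKM; the lower count was 91 with the error from the responses alone. Of the loci called with the minimum of 5 FPKM, 126 of 140 were among the 228. Rescaling the groups to a common median ratio called 227 loci and moved the difference by -0.00119. The counts past 4-fold were 121 and 136 with 0.1 FPKM added in place of 1, as low levels weigh more on that scale.

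The called flagellar associated loci numbered 4 with the larger error, 10 with the error from the responses alone, 13 with the minimum of 5 FPKM and 4 at 0.01. The axonemal loci numbered 0, 1 and 1 with the larger error, the responses' error and 0.01. With the larger error 2 fermentation, 1 plastid division and 2 cell cycle loci were called. Plastid division had 3 with 5 FPKM and 2 at 0.01, and the cell cycle 3 at 0.01; the cause of these moves was not tested beyond the fewer loci or stricter threshold that each setting sets.

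With the minimum of 5 FPKM the list medians moved to 0.105 for carbon concentration, 0.203 for mitochondrial ribosomal proteins, 0.094 for the cell cycle, 0.537 for copper, 0.569 for iron, -0.567 for nucleotide cyclases, and -0.409 for photoreceptors. With 0.1 FPKM added they moved to -0.231 for nucleotide cyclases, 0.856 for the clock and 1.674 for plastid division. With 0.1 FPKM added 9 of the 50 named genes moved by more than 1.5 times, none under rescaling or when transcripts were summed. Of the 49 named genes with a call, 23 kept it with the larger error. Some of them, such as CYCB1 and BCS1, had only 1 estimate, so their error did not change. With a mean of at least 1 FPKM over the 4 groups 80 and 125 loci were called. This alternative and those for list members and for leaving out chromosome 6 were added after the data were seen.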
